A study of Homo sapiens with 4 samples.

Results

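The promoters described here are those of 324 protein-coding genes whose accessible interval over the transcription start site (TSS) was narrower in C4-2BER cells than in C4-2B cells. They were selected on the measured widths. Of 19662 protein-coding genes with a canonical TSS in GENCODE release 44, 12706 had an interval over that TSS in both peak lists, and a gene was a member when its C4-2B interval was at least 1.5 times as wide as its C4-2BER interval. The members made up 2.55% of the 12706 shared promoters. By the same rule in the opposite direction, 964 genes, or 7.59%, had an interval that was wider in C4-2BER. The 324 genes lay in 311 pairs of intervals, because 25 of them shared a pair with a neighbouring member.

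The assay was ATAC-seq, which uses a transposase to cut and tag open DNA, and it asked where chromatin accessibility differed between a prostate cancer line and its drug-resistant derivative. C4-2B is an androgen-responsive prostate adenocarcinoma line, and C4-2BER was grown out of it under sustained treatment with the androgen receptor antagonist enzalutamide and is described as neuroendocrine-like and lacking the androgen receptor. The authors pooled the 2 libraries of each line before calling peaks, so every value below comes from 1 merged list per line and no difference has a replicate check. Of 24 luminal prostate factors listed as markers of the tissue, 21 had an interval over the TSS in both lists, as did 29 of 49 neuroendocrine and neuronal genes. In a mixed population, fewer open alleles and a lower degree of opening at each allele cannot be told apart.

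At an active promoter the DNA around the TSS is kept free of nucleosomes by transcription factors and RNA polymerase, and positioned nucleosomes flank the open stretch on both sides. Promoters within CpG islands tend to have a broad open region, while promoters with a TATA box and few CpG dinucleotides tend to have a short one and often belong to genes of restricted expression. A peak caller writes 1 interval where the signal stays above its threshold and several where the signal dips below it, so an interval can be narrower because an edge moved or because it was broken by a gap.

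The stretches that differed between the lists are shown first for 7 members, from the hg38 genome, 5′ to 3′ along transcription. Capitals mark bases that lay in the C4-2B interval and in no C4-2BER interval. KLK3 and KLK2 are the kallikrein genes of the prostate, and their edges are shown because nothing else replaced the lost flank. The stretch of KLK3 runs from 337 to 138 bp upstream of its TSS and that of KLK2 lies in the first intron. In TMPRSS2 the capitals lie in the first stretch of intron after the TSS, and in ERBIN they lie upstream of the TSS. The 3 remaining stretches, of VSIG10L, LAD1 and PRKACB, are upstream of the canonical TSS. They are centred on a C4-2B summit that no C4-2BER interval covered.
KLK3, chr19:50854578-50854777: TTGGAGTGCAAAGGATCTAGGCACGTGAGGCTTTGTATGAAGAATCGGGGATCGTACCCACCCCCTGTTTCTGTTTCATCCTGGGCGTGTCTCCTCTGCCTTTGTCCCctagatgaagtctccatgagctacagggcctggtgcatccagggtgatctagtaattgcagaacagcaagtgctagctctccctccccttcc
KLK2, chr19:50873576-50873775: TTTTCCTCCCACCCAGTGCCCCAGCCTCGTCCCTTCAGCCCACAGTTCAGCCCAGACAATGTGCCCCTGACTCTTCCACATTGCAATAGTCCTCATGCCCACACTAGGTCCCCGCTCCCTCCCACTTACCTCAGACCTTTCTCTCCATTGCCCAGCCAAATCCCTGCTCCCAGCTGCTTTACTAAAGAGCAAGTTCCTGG
TMPRSS2, chr21:41507533-41507732: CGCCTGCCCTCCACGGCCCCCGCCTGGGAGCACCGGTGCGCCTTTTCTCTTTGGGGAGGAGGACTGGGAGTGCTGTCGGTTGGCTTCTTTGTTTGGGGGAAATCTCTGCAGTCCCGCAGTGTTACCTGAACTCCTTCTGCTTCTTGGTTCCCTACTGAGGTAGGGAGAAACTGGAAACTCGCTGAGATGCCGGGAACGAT
ERBIN, chr5:65926237-65926415: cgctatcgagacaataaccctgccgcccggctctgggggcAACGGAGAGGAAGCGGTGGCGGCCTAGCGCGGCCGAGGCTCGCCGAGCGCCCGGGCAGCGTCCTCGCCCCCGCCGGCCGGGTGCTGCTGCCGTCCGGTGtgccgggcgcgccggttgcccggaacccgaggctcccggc
VSIG10L, chr19:51342718-51342917: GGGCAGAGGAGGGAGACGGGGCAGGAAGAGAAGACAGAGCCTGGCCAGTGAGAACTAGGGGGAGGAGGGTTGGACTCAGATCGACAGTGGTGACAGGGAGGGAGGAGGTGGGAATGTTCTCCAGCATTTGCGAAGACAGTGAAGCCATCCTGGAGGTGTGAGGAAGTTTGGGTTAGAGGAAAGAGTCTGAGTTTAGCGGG
LAD1, chr1:201400297-201400496: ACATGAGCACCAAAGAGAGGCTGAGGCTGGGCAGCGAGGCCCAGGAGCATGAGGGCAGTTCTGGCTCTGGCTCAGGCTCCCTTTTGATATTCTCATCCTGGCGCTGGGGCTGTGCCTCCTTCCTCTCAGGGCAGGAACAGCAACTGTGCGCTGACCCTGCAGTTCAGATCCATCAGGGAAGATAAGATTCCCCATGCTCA
PRKACB, chr1:84143904-84144103: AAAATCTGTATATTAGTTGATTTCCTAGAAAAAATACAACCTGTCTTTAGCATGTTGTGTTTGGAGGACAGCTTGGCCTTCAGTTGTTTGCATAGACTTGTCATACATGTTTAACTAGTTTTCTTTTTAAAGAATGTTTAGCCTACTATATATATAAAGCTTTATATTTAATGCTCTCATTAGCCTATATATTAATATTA

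The shared promoters were close in width between the lines. Over all 12706 genes the interval had a median width of 1064 bp in C4-2B and 1131 bp in C4-2BER, and the median ratio of the former to the latter was 0.976. Among the 324 members, which the rule placed beyond 1.5, the median width was 1060.5 bp in C4-2B and 519 bp in C4-2BER. The C4-2B median was close to that of all shared promoters, but it ran from 536 to 1293 bp over the classes of narrowing given below. The rule used both widths, so the smaller C4-2BER width of the members is no separate result. The C4-2BER width counts only the interval over the TSS. Their median ratio was 1.83 (quartiles 1.62 and 2.27), and their median difference was 503.5 bp, from 106 to 1538 bp. The members just inside the limit were B3GNT4 at 1.502, KRT6C at 1.503 and RAPGEF3 at 1.504. Just outside it lay C11orf97 at 1.499, MGMT at 1.497 and TEDC1 at 1.495.

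**Figure D1:**
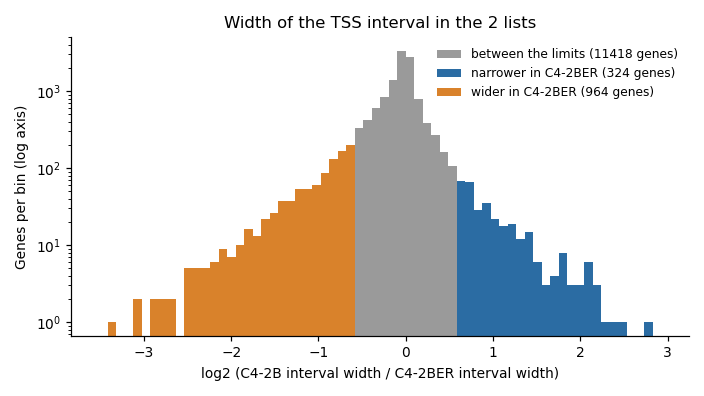
Histogram of the log2 ratio of the interval width in C4-2B to that in C4-2BER over the 12706 shared promoters, with genes per bin on a log axis. The 324 members (blue) form the right tail, and the left tail of genes wider in C4-2BER (orange) holds 964.

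The width was lost more often downstream of the TSS than upstream. A gene was assigned to a side when that side held at least 66.7% of the difference in width. By this measure 192 members (59.3%, Wilson 95% interval 53.8 to 64.5) narrowed downstream. Another 104 members (32.1%, 27.3 to 37.4) narrowed upstream, and 28 (8.64%, 6.05 to 12.2) on both sides. Among the 964 genes wider in C4-2BER, the added bases lay downstream in 48.8% (45.6 to 51.9), upstream in 32.6% and on both sides in 18.7%. The members usually kept an edge in place: in 218 of 324 (67.3%, 62.0 to 72.2) one edge lay within 50 bp of the same position in both lists, against 50.6% (47.5 to 53.8) of the genes wider in C4-2BER. In 283 members the TSS interval reached farther downstream in C4-2B, by 116565 bp in total. This includes bases that lay under another C4-2BER interval. Of these bases 70.7% were intron and 27.3% exon of the member itself. Coding sequence, a part of the exon share, made up 16.6%. No such shares were taken for other promoters.

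**Figure D2:**
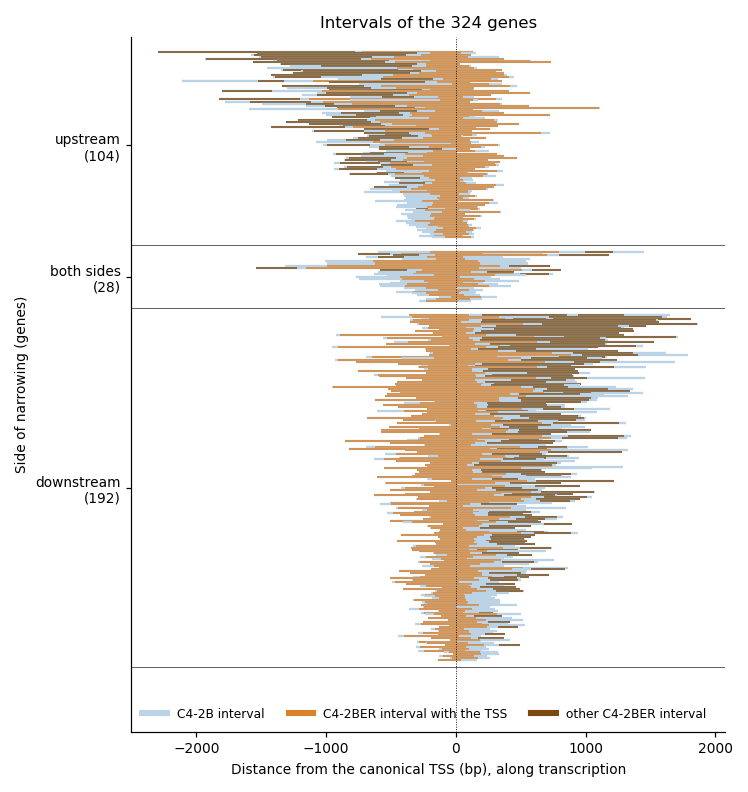
Intervals of the 324 members relative to the canonical TSS in bp along transcription, 1 gene per line, grouped by the side of narrowing; pale blue is the C4-2B interval, orange the C4-2BER interval with the TSS and brown any other C4-2BER interval, drawn within the C4-2B interval. In the downstream group of 192 genes the brown intervals mostly begin more than 100 bp after the TSS, and in the upstream group of 104 genes they lie before it.

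In most members the narrowing was a break. In 208 of 324 genes (64.2%, 58.8 to 69.2) at least 1 further C4-2BER interval overlapped the C4-2B interval. A gap separated it from the TSS interval, and these genes are called split. The further interval could reach beyond the C4-2B edge. In 47 genes (14.5%, 11.1 to 18.8) no other C4-2BER interval was present and the lost flank held a C4-2B summit of its own, and these are called lost-summit promoters. In the remaining 69 genes (21.3%, 17.2 to 26.1) an edge was shorter with neither, and these are called shortened. The classes differed in width, with a C4-2B median of 1293 bp in split, 977 bp in lost-summit and 536 bp in shortened promoters. Splits made up 52.5% (49.3 to 55.6) and lost-summit promoters 28.8% (26.1 to 31.8) of the genes in the opposite direction, where the roles of the lines are exchanged. Splits were 70.8% (64.0 to 76.8) of the members narrowed downstream and 60.6% (51.0 to 69.4) of those narrowed upstream.

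The gaps were short. They measured 51 to 475 bp with a median of 98.5 bp, and 109 of 208 were under 100 bp. The smallest distance between neighbouring intervals anywhere was 49 bp in the C4-2B list and 51 bp in the C4-2BER list, so closer stretches had been joined to almost the same distance in both. When all C4-2BER intervals were counted, they covered a median of 76.6% of the C4-2B interval. Measured against the summed full width of all C4-2BER intervals that overlapped the C4-2B interval, 127 members stayed at or above 1.5. Bases beyond the C4-2B edge were included in this sum, so it could exceed the C4-2B width. The 47 lost-summit and 69 shortened promoters stayed by definition, because they have no other C4-2BER interval. Of the 208 split members, 11 stayed. The summits beyond the gap were also alike: in the 202 split members with a summit of both lists in the lost flank, the reads there had a median of 63 in C4-2B and 50 in C4-2BER. After division of the C4-2B reads by 1.20, the ratio of depths, the median ratio of the 2 was 0.990 (quartiles 0.859 and 1.16).

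The gaps had a preferred place. Their centre lay downstream of the TSS in 142 of 208 split members (68.3%), at a median of 200 bp downstream. The stretch from 150 to 300 bp downstream held 63 gap centres (30.3%), while 11 lay within the first 150 bp after the TSS and 2 in the 150 bp before it. A further 35 lay between 150 and 450 bp upstream. The 506 split genes of the opposite direction had 146 gap centres (28.9%) from 150 to 300 bp downstream, with a median of 209 bp, and 17 in the 150 bp on either side of the TSS. The 2 distributions were not tested against each other. All positions are those of the deposited intervals, for which reads were shifted by 100 bp, and the part of the shift in where edges, summits and gaps lie was not tested. Since the TSS had to lie in an interval of both lists, few gaps could fall on it.

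**Figure D3:**
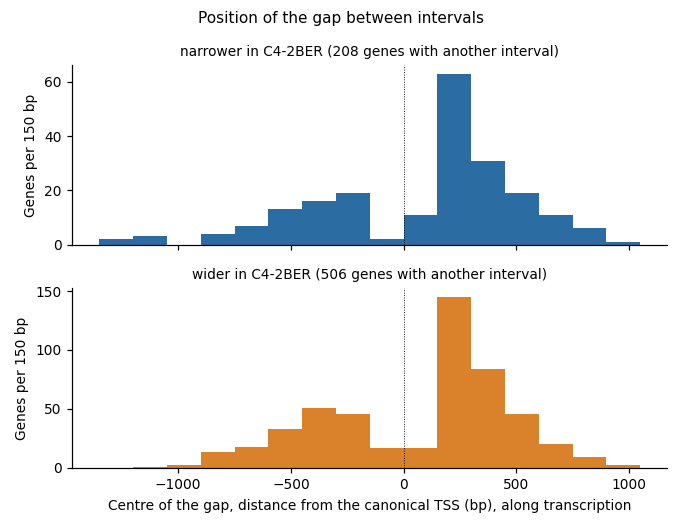
Number of genes per 150 bp by the distance in bp of the gap centre from the canonical TSS along transcription, for the 208 split members (top) and the 506 split genes wider in C4-2BER (bottom). Both have their highest bar from 150 to 300 bp downstream, with 63 and 146 genes.

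Summit heights were compared in the stretch that both lines kept. Each summit value is a whole number of reads under it, recovered from the deposited values, and the same step gave a depth of 30.2 M reads in C4-2B cells and of 25.2 M reads in C4-2BER cells. Over all shared promoters the depth-scaled ratio of C4-2B to C4-2BER at the highest summit had a median of 0.904 (quartiles 0.831 and 0.982). In 323 members with a C4-2B summit in the kept stretch the median was 0.986. Split members, at 0.938, lay near the value of all shared promoters, and lost-summit promoters stood at 1.03. Shortened promoters stood apart at 1.52 (quartiles 1.04 and 1.92). In 57 of these 69 genes (82.6%, 72.0 to 89.8) the C4-2B summit was the higher after scaling, against 21.0% (20.3 to 21.7) of all shared promoters. In the shortened class, width and height thus moved together, and the part of either in the other was not tested.

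The members were weaker than the other shared promoters. Their highest summit had a median of 92.5 reads in C4-2B against 68 in C4-2BER, where all shared promoters had 127 and 116. These reads belong to the interval over the TSS, and in split members the higher C4-2BER summit can lie in the other interval. With the highest summits anywhere in either TSS interval, a joint measure chosen after the data were seen, the medians of the members were 92.5 and 74 reads and those of all shared promoters 127 and 116. When the shared promoters were ordered by the summit reads of both lists and cut into 5 equal classes, members made up 5.98% of the weakest class, 2.56%, 2.16% and 1.38% of the next ones and 0.67% of the strongest. By the joint measure these shares were 5.94%, 2.24%, 2.24%, 1.49% and 0.827%. The share wider in C4-2BER also fell, from 19.1% to 3.03%.

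The most extreme members were nearly all split. Of the 10 with the highest ratio, 9 were split, and of the 10 with the largest difference all 10 were. ERBIN, which encodes a scaffold protein that binds the receptor ERBB2, had the highest ratio. Its interval was 1695 bp in C4-2B and 241 bp in C4-2BER, a ratio of 7.03. The 99 bp gap printed above separated the TSS from a C4-2BER interval of 1313 bp, which carried 153 reads at its summit against 174 in C4-2B. The broad upstream region of ERBIN was thus present in both lists.

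ADGRF3, which encodes an adhesion G protein-coupled receptor, followed at 1496 and 272 bp, and DNAJC22, a co-chaperone of the DNAJ family, at 1553 and 294 bp. ADH1C, an alcohol dehydrogenase, measured 955 and 200 bp. ADH1C was low throughout in C4-2BER, where its TSS interval and its other interval held 13 and 12 reads at the summit and the highest C4-2B summit held 77. ACADVL, the first enzyme of mitochondrial oxidation of very long-chain fatty acids, measured 1440 and 306 bp, and BDH1, an enzyme of ketone body metabolism, 1913 and 432 bp. The remaining ones were PTGES3L at 1391 and 314 bp, ST6GALNAC1, a sialyltransferase, at 984 and 224 bp, EPHA4, a receptor for ephrins, at 1698 and 395 bp, and USF2, an E-box binding transcription factor, at 1086 and 254 bp. Their ratios ran from 4.28 to 5.50.

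By difference in bp, EOLA2 came first with 2426 bp in C4-2B and 888 bp in C4-2BER. TRIM8, a ubiquitin ligase, lost 1534 bp (2013 to 479 bp). TMPRSS2 lost 1530 bp, and SLCO5A1, of the organic anion transporter family, lost 1494 bp. LOX, the enzyme that cross-links collagen, lost 1417 bp (1915 to 498 bp), and COMTD1 lost 1364 bp. TET3, which oxidises 5-methylcytosine, lost 1277 bp (1845 to 568 bp). The highest C4-2B summit of TET3, 1066 bp upstream of the TSS, held 142 reads, and the C4-2BER list had 123 reads at 1085 bp upstream in its other interval. The far part of these promoters was thus called in C4-2BER under a separate interval.

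Androgen-regulated genes were represented by the serine protease genes KLK3, KLK2 and TMPRSS2, which were 3 of 58 with a shared promoter (5.17%), while 2 of 58 were wider in C4-2BER. KLK3 encodes prostate-specific antigen. Its interval was 484 bp in C4-2B, from 337 bp upstream to 146 bp downstream of the TSS, and 252 bp in C4-2BER, from 229 bp upstream to 22 bp downstream. The summit lay 106 bp upstream in both lists and held 171 reads in C4-2B against 45 in C4-2BER, a depth-scaled ratio of 3.18. The KLK3 promoter was lower as well as shorter, on both sides of an unmoved summit.

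KLK2, the neighbouring kallikrein gene, lost its downstream flank. Its interval was 830 bp in C4-2B and 496 bp in C4-2BER, with 310 of the 334 bp of difference downstream. The summit held 136 reads in C4-2B, 216 bp upstream of the TSS, and 102 in C4-2BER, 213 bp upstream, and the scaled ratio was 1.11. TATAAA, the core of the TATA box, was matched in the kept part of both genes, from 28 to 23 bp upstream of the TSS in KLK3 and from 34 to 29 bp in KLK2. An E-box of the letters CACGTG lay in the lost stretch of KLK3 printed above, and one of the letters CAGCTG in that of KLK2.

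TMPRSS2, a surface serine protease and the 5′ partner of a fusion common in prostate cancer, was a split promoter. The C4-2B interval of 2203 bp held 4 summits, with 128 reads at 34 bp upstream of the TSS and 46, 55 and 79 reads at 548, 811 and 1191 bp downstream. The C4-2BER list had an interval of 673 bp over the TSS with 75 reads, and another of 869 bp whose summits held 47 and 58 reads. Between them 384 bp of the first intron were uncovered, including the C4-2B summit of 46 reads. The TMPRSS2 summit at the TSS was the higher in C4-2B after scaling, with a ratio of 1.43.

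Among luminal epithelial factors, ESRP2 and KRT8 were members (2 of 21 shared promoters, 9.52%), and 2 of 21 were wider in C4-2BER. The median ratio of the 21 was 1.01. KRT18, at 641 bp in C4-2B and 1582 bp in C4-2BER, and CDH1, at 491 and 741 bp, went the other way. These 2 genes are named with their values known. KRT8, a keratin of simple epithelia, measured 924 bp in C4-2B and 569 bp in C4-2BER. A gap of 60 bp within its first coding exon separated a further C4-2BER interval of 248 bp. The summits on either side of this gap were alike, with 141 and 68 reads in C4-2B, against 148 and 65 in C4-2BER. ESRP2, an epithelial splicing regulator, measured 968 and 435 bp, also with a second C4-2BER interval downstream.

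NCAM1, a neural cell adhesion molecule and neuroendocrine marker, was the member among 29 neuroendocrine and neuronal genes (3.45%), of which 7 (24.1%) were wider in C4-2BER. Its interval was 719 bp in C4-2B and 473 bp in C4-2BER, but its summit held 24 reads in C4-2B against 36 in C4-2BER. NCAM1 was therefore shorter but higher at its summit in C4-2BER, whose list had the lower depth. None of 12 HOX genes and none of 15 housekeeping genes with a shared promoter was a member, while 2 (16.7%) and 1 (6.67%) were wider in C4-2BER. In lists this short a count of 0 says little, since it allows up to 3 counts.

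**Figure D4:**
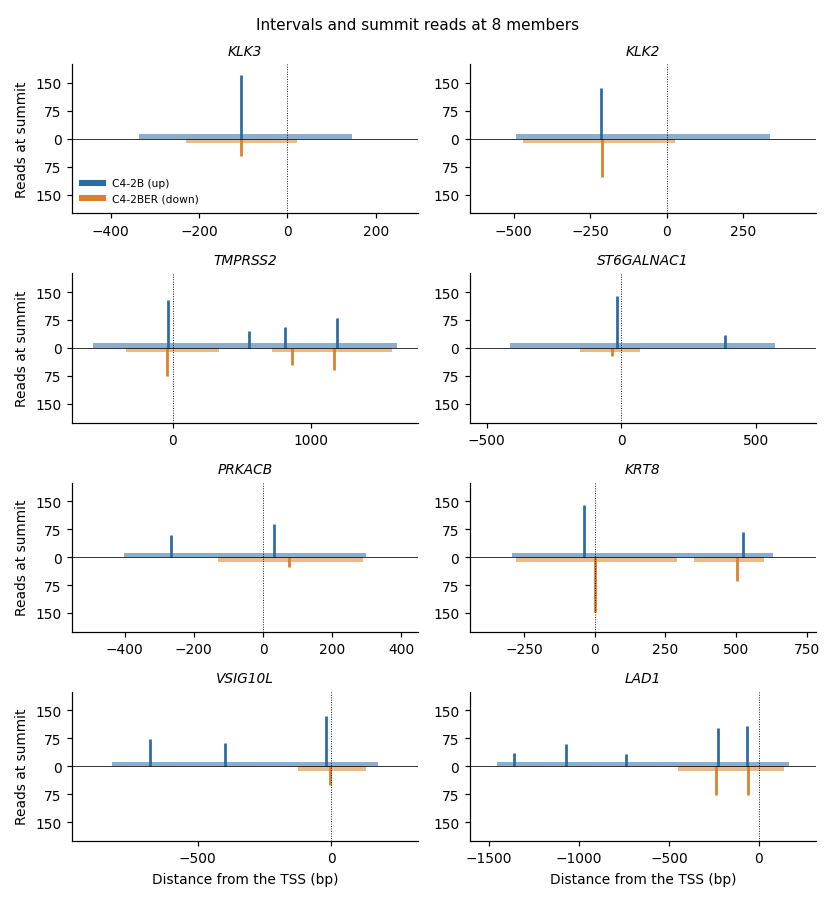
Intervals (bars) and summit reads (vertical lines, in reads) of 8 members by distance from the TSS in bp, with C4-2B upward in blue and C4-2BER downward in orange. KLK3 keeps its summit at 106 bp upstream with 171 and 45 reads, TMPRSS2 and KRT8 have further C4-2BER intervals, and PRKACB, VSIG10L and LAD1 have upstream C4-2B summits with no C4-2BER interval below them.

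Cholesterol and fatty acid genes gave 3 members of 36 (8.33%), and 4 of 36 were wider in C4-2BER. INSIG2, which retains the sterol-sensing complex in the endoplasmic reticulum, measured 1000 bp in C4-2B and 663 bp in C4-2BER, and ELOVL6, a fatty acid elongase, 994 and 584 bp. Both of these genes were split downstream of the TSS, with a further C4-2BER interval in the transcribed region.

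Interferon response genes gave 3 members of 40 (7.50%), with 2 wider in C4-2BER. Among them OAS2, an antiviral oligoadenylate synthetase, measured 762 and 407 bp in C4-2B and C4-2BER, and GBP2, a guanylate-binding protein, 471 and 287 bp. These were weak promoters with 21 to 25 reads in either list. Chromatin regulators gave 6 of 69 (8.70%), with 4 wider in C4-2BER. Besides TET3 these were the acetyltransferase genes KAT6A (2174 and 1311 bp) and CREBBP (1352 and 837 bp), the methyltransferase gene SETD1A (1727 and 1066 bp), the remodeller subunit gene ARID1B (1115 and 681 bp) and TET1 (996 and 644 bp). PPP1R15A, which restores protein synthesis after stress, was the member among 53 AP-1 and immediate early genes and among 32 genes of the unfolded protein response, and measured 1166 and 637 bp. MCM5, a subunit of the replicative helicase, was the member among 53 cell cycle genes and measured 1142 and 720 bp. Each list thus held 0 to 6 members, beside 2.55% of all shared promoters, and no list was tested.

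The strongest members of each side were taken by the highest C4-2B −log10 q. Among those narrowed upstream, the highest C4-2B −log10 q belonged to TMEM161B at 153, with 1325 bp in C4-2B and 871 bp in C4-2BER. KXD1 and the divergent genes SEZ6L2 and ASPHD1 came next, followed by ERBIN. Among those narrowed downstream, INSIG2 led at 140, followed by ISOC2, MED10, ATP6AP1 and BUB3, a spindle checkpoint gene (1289 and 621 bp). These 5 were all split. Among those narrowed on both sides, CDHR3, a cadherin-related receptor, led with 1090 and 559 bp, and its summit held 176 reads in C4-2B against 63 in C4-2BER. CLDN8, a tight junction protein, measured 919 and 554 bp with 117 and 53 reads. TRAPPC2B, ZNF547 and ENSG00000268133 shared 1 pair of intervals, of 1552 and 815 bp.

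Lost-summit promoters carried C4-2B summits that had no C4-2BER interval over them. In the 47 genes the highest such summit lay from 1298 bp upstream to 1212 bp downstream, with 15 upstream and 32 downstream of the TSS. The genes of this class given here were chosen after their values were seen, apart from ST6GALNAC1. The upstream summit of MRPS34, a mitochondrial ribosomal protein, was the highest in a lost flank of this class at 81 reads, 883 bp from the TSS, while its 2 other summits held 131 and 129 reads in C4-2B, against 129 and 121 in C4-2BER. VSIG10L had 3 C4-2B summits of 134, 61 and 73 reads, at 20, 398 and 679 bp upstream, and a single C4-2BER summit of 51 reads at 4 bp upstream. VSIG10L thus lost 2 summits and the remaining one was lower.

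LAD1, an anchoring filament protein of epithelia, had 5 C4-2B summits. The 2 nearest the TSS held 109 and 102 reads in C4-2B, against 78 and 77 in C4-2BER. The 3 farther ones, at 737, 1073 and 1361 bp upstream, held 32, 59 and 35 reads in C4-2B and had no counterpart in C4-2BER. PRKACB, a catalytic subunit of protein kinase A, had C4-2B summits of 88 reads at 32 bp downstream and 60 reads at 267 bp upstream, and a C4-2BER summit of 26 reads. In the stretch printed for LAD1 the GATA letters AGATAAG were matched from 993 to 987 bp upstream, and in that of PRKACB the letters TATAAA were matched from 215 to 210 and from 207 to 202 bp upstream. GP2, a membrane glycoprotein of secretory cells, had C4-2B summits of 41 and 34 reads upstream and a minimal C4-2BER interval of 200 bp with 9 reads. ST6GALNAC1 dropped from 140 reads to 22 at the TSS and lost a summit of 36 reads at 386 bp downstream.

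Some lost flanks reached the start of another gene. In 10 members (3.09%) the flank held the canonical TSS of another protein-coding gene. In 64 (19.8%) it held another TSS of the member itself and in 12 (3.70%) the TSS of a long non-coding RNA. The matching shares in the genes wider in C4-2BER were close, at 2.59%, 21.2% and 3.32%. The flank includes bases under another interval of the narrower list. EFCAB11 and TDP1, a DNA repair phosphodiesterase gene, face away from each other within 1 C4-2B interval of 2302 bp. The C4-2BER list had an interval of 1054 bp over EFCAB11 and another of 1199 bp over TDP1, so both genes were members by the same break. H3C13 and H2BC18, replication-dependent histone genes on the same strand, lay likewise in a C4-2B interval of 1821 bp and in C4-2BER intervals of 728 and 864 bp. SEZ6L2 and ASPHD1 (670 and 1008 bp) were of this kind too. The lost flank of ADGRF3 held the TSS of SELENOI, and that of PTGES3L the TSS of RUNDC1 and of PTGES3L-AARSD1.

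Promoters with a divergent neighbour within 1000 bp upstream were fewer among the members, at 21 of 324 (6.48%, 4.28 to 9.70), than among all shared promoters (13.7%, 13.1 to 14.3). All 21 were split. Among the 116 members without another C4-2BER interval there were 0 with a divergent neighbour, which allows a share of up to 2.59% (3 counts of 116). The genes wider in C4-2BER had such a neighbour in 7.99% (6.44 to 9.87).

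By family, counts stayed small, and no family was tested. They are given beside the 2.55% of all shared promoters that were members and the 7.59% that were wider in C4-2BER. Of 41 families with at least 10 shared promoters, 13 had no member. Cytochrome P450 genes had the highest share with 2 of 20 (10.0%), and 3 of 20 were wider in C4-2BER. CYP4F8 measured 1051 bp in C4-2B and 274 bp in C4-2BER, with 58 and 14 reads at the highest summit, and its neighbour CYP4F3 1037 and 460 bp, with 87 and 28 reads. These fatty acid hydroxylases lie on chromosome 19 and narrowed on both sides. Histone genes gave 5 of 51 (9.80%), with 2 wider in C4-2BER, and besides the pair above included H2BC17 and H2AC17, which shared an interval of 1857 and 970 bp. Cadherins and protocadherins gave 4 of 46 (8.70%), among them PCDHGA10 (685 and 380 bp), CDH4 (488 and 206 bp) and PCDHB3 (457 and 234 bp), but 18 of 46 (39.1%) were wider in C4-2BER. Collagens and laminins gave 2 of 24 (8.33%), COL27A1 (556 and 298 bp) and COL15A1 (576 and 326 bp), with 5 wider in C4-2BER. Respiratory chain subunits (99), cytosolic ribosomal proteins (96) and proteasome subunits (46) had no member, and C2H2 zinc finger genes had 9 of 521 (1.73%). The share narrower was above the share wider in 4 of the 41 families.

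Base composition was not used to choose the members. A promoter was called CpG-rich when the 1000 bp around the TSS had a GC content of at least 50% and an observed to expected CpG ratio of at least 0.6. By this measure 64.2% (58.8 to 69.2) of the members were CpG-rich, against 87.9% (87.4 to 88.5) of the other shared promoters and 81.3% (78.7 to 83.7) of those wider in C4-2BER. The share was 79.8% (73.8 to 84.7) in split, 53.2% (39.2 to 66.7) in lost-summit and 24.6% (16.0 to 36.0) in shortened promoters. Counted the other way, 7.21% (6.04 to 8.58) of 1609 CpG-poor shared promoters were members and 1.87% (1.64 to 2.14) of 11097 CpG-rich ones, while 11.2% and 7.06% were wider in C4-2BER. CpG content also went with strength: of the promoters that were not members, 71.4% of the weakest and 95.1% of the strongest class of summit reads were CpG-rich. Within the weakest of the 5 classes of summit reads 46.1% (38.3 to 54.0) of 152 members and 71.4% of the other promoters were CpG-rich, and in the next class 70.8% (58.8 to 80.4) and 86.7%. By the joint measure the members of the weakest class were CpG-rich in 45.0% (37.3 to 53.0) and the others in 71.5%. In the 2 strongest classes the interval of the members held the share of the others.

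**Figure D5:**
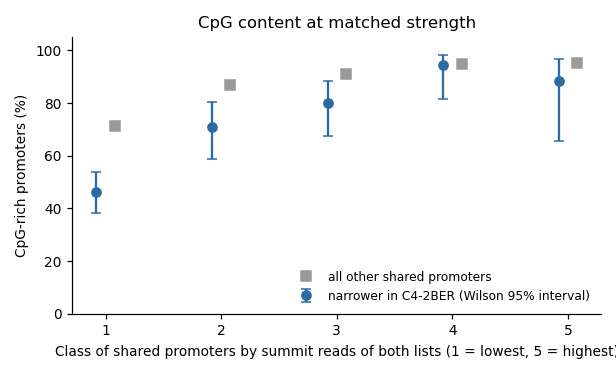
Percent of promoters that are CpG-rich by class of summit reads over both lists, from 1 (lowest) to 5,, for the members (blue, with Wilson 95% intervals) and the other shared promoters (grey). In class 1 the values are 46.1% and 71.4%, and in class 4 they are 94.3% and 94.7%.

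Short motifs were matched on both strands in 200 bp around the highest C4-2BER summit of the TSS interval. The SP/KLF letters GGGGCGGGG were found in 16.7% (13.0 to 21.3) of 311 member intervals and 26.8% (26.0 to 27.7) of 11310 others, the ETS letters CCGGAAGT in 3.54% (1.99 to 6.22) and 7.46% (6.99 to 7.96), and the CCAAT-box letters CCAATNNG in 12.2% (9.03 to 16.3) and 17.4% (16.7 to 18.1). TATAAA was found in 6.43% (4.20 to 9.72) of members and 2.28% (2.02 to 2.57) of others, and the AP-1 letters TGANTCA in 6.75% (4.46 to 10.1) and 2.18% (1.92 to 2.46). The GATA letters AGATAAG were found in 1.61% (0.689 to 3.71) of members and 0.416% (0.313 to 0.552) of others. The kept centres of the members thus held fewer SP/KLF, ETS and CCAAT-box letters and more TATA, AP-1 and GATA letters. Their mean GC content was also lower, at 65.5% against 68.7%. The members were also weaker and less often CpG-rich, and motif shares were not compared within classes of strength or CpG content. The GATA share of the members rested on 5 of 311 windows.

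The lost edges did not stand out in the same way. These windows were not limited to bases outside every C4-2BER interval, so in split members they can lie under the other C4-2BER interval. In the 208 split members all C4-2BER intervals covered a median of 86.0% of the C4-2B interval. The shares below are therefore not those of sequence absent from the C4-2BER list. In the outermost 200 bp on 291 sides that had lost at least 200 bp, the forkhead letters TGTTTAC were found in 2.06% (0.948 to 4.42) against 1.98% (1.81 to 2.18) of 21426 edges of other shared promoters at least 400 bp wide in C4-2B. The AP-1 letters were found in 4.12% (2.37 to 7.07) against 3.51% (3.27 to 3.76), and the SP/KLF letters in 5.50% (3.41 to 8.74) against 6.87% (6.54 to 7.22). The androgen response element was matched at 2 of the 291 lost edges (0.687%, 0.189 to 2.47) and in 0.238% (0.181 to 0.313) of the other edges. At 81 C4-2B summits that no C4-2BER interval covered, the E-box letters CAGCTG were the most frequent of the 17 motifs searched, in 17.3% (10.6 to 26.9). They were found in 10.5% (10.1 to 10.9) of the other edges, where they were also the most frequent. At the lost edges of members the share was 10.7% (7.61 to 14.7), and in the windows around summits of other shared promoters 11.7% (11.1 to 12.3). A match is a run of letters and not a measured binding site.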

How the data were processed

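ATAC-seq of 4 libraries, 2 of C4-2B and 2 of C4-2BER, was used as 1 merged narrowPeak list per line. According to the study's methods, the authors trimmed reads with cutadapt, aligned them to hg38 with Bowtie2, kept a mapping quality of at least 10, removed duplicates with Picard, merged the libraries and called peaks with macs2 without a model, shifting reads by 100 bp and extending them to 200 bp. The shift is given without a minus sign, and its direction sets where edges and summits lie relative to the cut sites. The deposited fold enrichment is a ratio of summit reads to local background, and the deposited −log10 p and −log10 q belong to each summit. The deposited score is macs2's whole-number form of q and entered no result. The remaining deposited columns, of other kinds, are interval starts, ends and summit offsets in bp. The submitters' processing notes also name FastQC and bedtools 2.17. The macs2 version is not given in the sources used here.

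Rows with the same interval were counted once. Reads under each summit were solved from fold and −log10 p, which gave a whole number (tolerance 0.0005 in −log10 p) for 100% of summits, and the lowest background gave depths of 30.2 M and 25.2 M reads (ratio 1.20) at a genome size of 2700000000 bp. The steps were tested on simulated data, where 100% of 19490 made summits and 100% of 400 made interval pairs were recovered. Weakest summits held 8 and 7 reads, so lower signal is not in the lists. Python 3.11.15 with pandas 2.3.3, scipy 1.17.1 and pysam 0.24.0 was used.

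The canonical TSS of each protein-coding gene came from GENCODE release 44, and sequences from the hg38 genome. Shares carry Wilson 95% intervals, which cover counting error only. A count of 0 allows up to 3 counts, a limit printed as a share only for the divergent neighbours. With 1 list per line there was no test, SD or p-value. The members, the 11 gene lists, 42 families and 17 motifs were chosen with earlier results of these data known. Named singly are the 10 members of highest ratio and of largest difference, members of the gene lists (at most 5 of a list), the 5 of highest C4-2B −log10 q per side, the 5 of largest difference whose lost flank holds another gene's TSS, 3 genes either side of the limit, and up to 3 members of the 4 families with the highest share among those with at least 10 shared promoters. TET1 is given beyond this rule to complete its list. Genes outside this rule were picked with their values known, which the text states. Some genes and sequences within these rules are not reported here.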

Additional observations from a re-analysis of the deposited data

How the results depend on the processing

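The number of members depended on what was measured. It was 780 with the ratio limit set halfway between 1 and 1.5 and 115 with a ratio of at least 2. With the span of all C4-2BER intervals in place of the TSS interval it was 118, with their summed width 127, and with covered bases within 1000 bp of the TSS 162. It was 71 where each interval had 1 summit and 190 where depth-scaled summits differed by less than that same halfway factor. Under the same settings, in the same order, the genes wider in C4-2BER numbered 2106, 359, 464, 495, 571, 147 and 435, above the members each time. The other settings (−log10 q of at least 10, division by the median ratio, 1 entry per pair, any TSS) gave 251 to 428 members. The share narrowed downstream was 48.3% without split members, and the upstream share ran from 29.1% to 35.8% over its settings. At a −log10 q of at least 10 the split share was 72.9% and the CpG-rich share 72.1%, and the split share was 75.7% at a ratio of at least 2. In 400 bp windows the androgen response element was matched in 0% of lost edges and SP/KLF in 12.1%. In these 20 cases the value moved, and in 27 others it stayed within its counting interval or within 1.5 times the count; the cause was not tested.

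No paired analysis was possible because the libraries of a line were merged before peak calling, and for the same reason leaving out a library was not an option. Depth limits what is in a list: a flank just under the threshold of the shallower C4-2BER list and one without signal cannot be told apart.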

Other observations

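Members were spread over the chromosomes, with none among 9 shared promoters of chromosome Y. Shares ran from 0.917% on chromosome 13 and 1.03% on chromosome 7 to 3.94% on chromosome 19 and 4.59% on chromosome 16, where 26 of 566 shared promoters were members and 43 were wider in C4-2BER.

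In 12 cases 2 or more members shared a pair of intervals. The genes of a pair were counted separately, so a loss can be upstream for a gene and downstream for a partner on the other strand: H2BC17 lost 845 bp upstream and H2AC17 lost 845 bp downstream. In 57 members (17.6%, 13.8 to 22.1) the highest C4-2B summit of the interval lay in the lost flank, away from the TSS. In the genes wider in C4-2BER the matching share was 12.2% (10.3 to 14.5).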
